A study of Mus musculus with 2 samples.

Results

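The probes described here are 33 oligonucleotides that the array maker added under its own names, each beginning with ambi_miR_, beside the probes for miRNAs of public databases. The rule that picks them is that prefix alone and uses no measured value. They make up 33 of the 377 probes other than controls, and with 4 spots each they fill 132 of the 1728 spots of an array. Per the file headers the array design is one by Ambion. The prefix names no species, whereas the other 344 probes carry a human, mouse or rat prefix. A miRNA is a short RNA, cut from a hairpin, that guides the silencing of messenger RNAs by pairing with them. A candidate miRNA is a short RNA proposed to belong to this class without an entry in the public database. A probe for a candidate reads any labelled RNA that pairs with it, whether or not that RNA is a true miRNA.

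The numbers in the names run from 7026 to 7105, and in all 33 probes the maker's oligonucleotide identifier is the name's number plus one constant. Of these numbers, 26 are also carried by mouse miRNAs in the RefSeq table. A shared number is no match of sequence, so no probe was given the name, gene or location of such a miRNA, and the probes' sequences were not used here. The names ambi_miR_7038_1, ambi_miR_7059_1 and ambi_miR_7068_1 end in a suffix. No number occurs more than once among the 33 probes, so the comparison of probes that share a number could not be made.

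C3H10T1/2 cells, an established mouse line of mesenchymal type, can form bone, cartilage and fat, and the secreted growth factor BMP7 acts on such cells through SMAD signalling. The study asked which miRNAs respond to BMP7 in this line. One group was given BMP7 at 3.3 nM and the other vehicle, each for 3 days. Total RNA of each group was labelled with the dye Cy3 after addition of a poly(A) tail and put on 1 array. With 1 array per group there is no replicate check and no p-value, and precision is limited by that number.

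The scans hold a channel at the wavelength of Cy3 and a second channel, for which the sources used here name no content. In the Cy3 channel most spots lay below or little above their local background. That background had a median of 4650 units of intensity with BMP7 and 3756 with vehicle. Detector gain was equal on both arrays, and the laser power reading of the Cy3 channel was 3.17 for BMP7 and 2.45 for vehicle. Per the file headers both channels of the vehicle array came from 1 image name and those of the BMP7 array from 2.

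In the Cy3 channel 7 of the 33 candidate probes were detected, 4 of them with BMP7 and all 7 with vehicle, so that 4 were seen on both arrays. A probe counted as detected when at least 2 of its 4 spots exceeded their own local background by more than 2 standard deviations, taken over all local backgrounds of that array, which came to 948 units for BMP7 and 1152 for vehicle. Over all 377 probes the share detected was 12.5% with BMP7, 19.4% with vehicle and 21.5% on 1 or both arrays, and the candidates' own share of 21.2% lay close to the last of these. Probes with a mouse miRNA of that name were detected on 1 or both arrays in 24.3% of cases, and probes with none in 10.3%. The count of candidates depends on the rule, and was 19 on 1 or both arrays at 1 standard deviation and 4 when 3 of the 4 spots had to pass. With the limit at the 95th percentile of probes with no mouse miRNA of that name, it was 10 on 1 or both arrays. By that limit 6 were detected with BMP7 and 8 with vehicle.

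The probe ambi_miR_7038_1 was the brightest candidate with BMP7. Its 4 spots exceeded their local background by 3453, 3639, 3038 and 3869 units on the BMP7 array and by 2070, 2073, 1581 and 2386 units on the vehicle array. No vehicle spot reached the lowest BMP7 spot. In mean excess it ranked 18 among the 377 probes with BMP7 and 31 with vehicle. After background correction and quantile normalization its level was 12.30 on the log2 scale with BMP7 and 11.60 with vehicle. Its log2 difference (BMP7 minus vehicle, here and below) was 0.70 ± 0.094, or 1.63-fold higher. The error of a difference is the standard error over 4 spots per array, and it leaves out any spread between cultures.

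The probe ambi_miR_7081 was the brightest candidate with vehicle and went the other way. Its spots exceeded their local background by 4989, 5246, 6485 and 4460 units on the vehicle array and by 1566, 2280, 2012 and 2310 units on the BMP7 array. No BMP7 spot reached the lowest vehicle spot. Its normalized log2 level was 12.59 with vehicle and 11.87 with BMP7, a log2 difference of -0.71 ± 0.090 or 1.64-fold lower. It ranked 11 among the 377 probes with vehicle and 23 with BMP7.

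The remaining probes detected on both arrays, ambi_miR_7070 and ambi_miR_7103, had overlapping spots. For ambi_miR_7070 the spots exceeded their local background by 1282, 692, 3530 and 747 units with BMP7 and by 1732, 1766, 1458 and 1125 units with vehicle. Its BMP7 spot 3 stood far above its other BMP7 spots, and the log2 difference of 0.20 ± 0.27 became -0.052 without spot 3 of each array. For ambi_miR_7103 the excess was 1668, 395, 518 and 1411 units with BMP7 and 1658, 2144, 731 and 445 units with vehicle. Its log2 difference was 0.18 ± 0.30, and -0.068 without spot 4 of each array, so the direction of both probes rested on 1 spot position.

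The probes ambi_miR_7058, ambi_miR_7059_1 and ambi_miR_7083 were detected on the vehicle array only. A probe that passes through 1 array alone was picked by its brightness there and tends to be brighter there, so their differences are no support for an effect. Against the lowest level among probes detected with BMP7, ambi_miR_7058 was at least 1.54-fold lower with BMP7, a bound that takes in neither the spots' spread nor other ways of processing. No such bound is given for ambi_miR_7059_1 and ambi_miR_7083, whose spots overlapped between the arrays.

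The vehicle spots of these 3 probes were uneven. Those of ambi_miR_7058 exceeded their local background by 3532, 2793, 1049 and 913 units, while its BMP7 spots were at -69.0, -408, -172 and -126 units. Those of ambi_miR_7059_1 were at 2984, 3181, 1194 and 1286 units with vehicle and at 358, 529, -165 and 1461 units with BMP7. In both probes vehicle spots 1 and 2, which are neighbours on the array, were higher than spots 3 and 4, which are neighbours elsewhere in the same block. For ambi_miR_7083 vehicle spots 1 and 4 were at 2086 and 2792 units and spots 2 and 3 at -13.0 and 40.0 units, while its BMP7 spots were at 701, 200, 127 and 166 units.

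The fitted log2 differences of these probes were -1.12 ± 0.31, -0.60 ± 0.34 and -0.12 ± 0.46 in the same order. The first of these is fitted to BMP7 spots that all lay below their local background, so it is not a measured fold, and its bound is under 2-fold. Without spot 1 or spot 2 of each array it was -0.94 and -0.93. For ambi_miR_7083 the value was 0.22 without spot 4. Over the 33 candidates on the vehicle array, the median absolute difference in normalized log2 values between neighbouring spots was 0.30. That between the means of the 2 pairs of a probe was 0.48. On the BMP7 array these were 0.29 and 0.29. Over the 344 other probes they were 0.26 and 0.41 with vehicle and 0.29 and 0.34 with BMP7. The 2 measures are not alike, since the first compares single spots and the second means of 2 spots, which vary less when spots are independent. The standard errors take the 4 spots as independent.

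Among the 7 detected candidates, then, the normalized log2 values of the spots stood apart between the arrays for 3. These were ambi_miR_7038_1, higher with BMP7, ambi_miR_7081, lower, and ambi_miR_7058, which passed detection through the vehicle array alone. Over all 81 probes detected on 1 or both arrays they stood apart for 38.3%. By fitted values 0 of the 7 were 2-fold or more higher and 1, ambi_miR_7058, was 2-fold or more lower, and 0 were lower with probes detected on 1 array at their bounds. The share of the 81 probes that passed 2-fold in either direction was 11.1%. The median log2 difference of the 7 detected candidates was -0.12, beside -0.091 over the 81 detected probes. Over all 33 candidates, most of them not detected on either array, the median was 0.065, beside 0.0015 over all 377 probes. Of the 33, 17 were above 0 and 16 below.

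The candidates are printed in 4 of the 16 blocks, or grids of spots, of the array: 6 in block 2, 11 in block 4, 8 in block 10 and 8 in block 12. All 4 spots of a probe lie in the same block. The other probes of these blocks did not share 1 level of difference between the arrays. Their median log2 difference was -0.51 over 18 probes in block 2, 0.032 over 13 in block 4, -0.51 over 15 in block 10 and 0.54 over 16 in block 12. Over all 16 blocks it ran from -0.73 to 0.62.

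In blocks 4, 10 and 12 the candidates' medians were close to those of the other probes. All 8 candidates of block 12 had a log2 difference above 0, with a median of 0.46, as had 15 of the 16 other probes there. In block 10 the candidates' median was -0.54, and in block 4 it was -0.015. In block 2 it was -0.14, and 5 of the 6 candidates were below 0, as were 15 of the 18 other probes.

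Set against the median of the other probes of their own block, the detected candidates shifted by unequal amounts. The probe ambi_miR_7038_1, in block 10, was 1.21 above it on the log2 scale, and so further from its block than from 0. The probe ambi_miR_7081, in block 4, was at -0.75, close to its value against 0. In block 10 the fitted value of ambi_miR_7058 came to -0.61, and in block 2 ambi_miR_7059_1 came to -0.091. The direction turned for ambi_miR_7070 in block 12, at -0.34, and for ambi_miR_7083 in block 2, at 0.40, while ambi_miR_7103 in block 4 was at 0.15. The other probes detected on 1 or both arrays were 2 of 18 in block 2 and 7 of 13 in block 4. They were 1 of 15 in block 10 and 4 of 16 in block 12. Outside block 4 the block medians thus rest mostly on probes not detected on either array. The part of the blocks in the candidates' differences was not tested.

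The other 26 candidates were not detected on either array. Their mean excess over the local background ran from -1004 to 765 units with BMP7, with a median of -241, and from -814 to 1079 units with vehicle, with a median of 324. Those of highest excess with BMP7 were ambi_miR_7080 at 765, ambi_miR_7075 at 724 and ambi_miR_7026 at 480 units. With vehicle they were ambi_miR_7055 at 1079, ambi_miR_7105 at 752 and ambi_miR_7066 at 744 units. No probe was in both lists of 3, but the same overlap was not computed over all probes, so nothing is read from this. No fold is given for these 26 probes, since on both arrays they were not well above background.

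Without the detection rule, the normalized log2 values of the spots stood apart between the arrays for 7 of the 33 candidates, and over all 377 probes for 21.8%. Besides the 3 detected probes named above these were ambi_miR_7026 and ambi_miR_7054, both in block 12 and higher with BMP7, and ambi_miR_7062 and ambi_miR_7066, both in block 10 and lower. In excess over the local background, before normalization, the spots of ambi_miR_7026 and ambi_miR_7054 overlapped between the arrays. The lowest BMP7 spot and the highest vehicle spot were at 230 and 518 units for ambi_miR_7026. For ambi_miR_7054 they were at -236 and -8 units. The probe ambi_miR_7054 was named after its values were seen. The direction of all 4 was that of the median of the other probes of their block.

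In mean excess over the local background, the 33 candidates correlated between the arrays with a Spearman rho of 0.56, and the 344 other probes with one of 0.69. The probes of an array share its RNA, its scan and its blocks, so these values describe the 2 arrays only. Of the candidates' 132 spots, 53.0% with BMP7 and 30.3% with vehicle lay below their own local background in the Cy3 channel. Among the spots of the other probes these shares were 65.0% and 45.9%.

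In the second channel the candidates were mostly dim. The brightest of the 16 spots named Control_1 had a mean of 412 units with BMP7 and 319 with vehicle. On both arrays 21 of the 33 candidates (63.6%) had a mean at or below that spot, against 9.28% of all 377 probes and 4.07% of the 344 others. The candidates' median in this channel was 260 units with BMP7 and 256 with vehicle, while that of the other probes was 3459 and 3982. For 17 of the 33 candidates, and for 6 of the 344 others, the mean in this channel was below the spots' own local background on both arrays.

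Each of the 4 blocks held dim candidates in similar proportion. Their share was 66.7% in block 2, 63.6% in block 4, 62.5% in block 10 and 62.5% in block 12. Of the 62 other probes in those 4 blocks, 2 (3.23%) were as dim. No test was made of the difference between candidates and other probes, because probes of 1 array are not replicates.

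The candidates lay at unequal levels in the second channel. The 21 dim probes had means from 180 to 366 units with BMP7 and from 139 to 292 with vehicle, and 3 of them were detected in the Cy3 channel. A further 5 probes (ambi_miR_7038_1, ambi_miR_7054, ambi_miR_7070, ambi_miR_7075 and ambi_miR_7081) ranged from 506 to 871 units with BMP7 and from 393 to 725 with vehicle, and 3 of these were detected in the Cy3 channel. The last 7 were above 1000 units on both arrays, and 1 of them, ambi_miR_7083, was detected in the Cy3 channel. The limit of 1000 units was set after the values were seen.

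The brightest in the second channel was ambi_miR_7079. Its 4 spots read 17896, 16863, 19808 and 20229 units on the BMP7 array and 20862, 20021, 18750 and 19956 units on the vehicle array, and its mean ranked 6 and 8 among the 377 probes. Next came ambi_miR_7076, at 13247, 13670, 17079 and 17610 units with BMP7 and 15838, 14658, 17052 and 18117 units with vehicle. The arrays overlapped in both probes. In the Cy3 channel the mean excess over the local background was -357 with BMP7 and 472 with vehicle for ambi_miR_7079, and 26.0 and -231 for ambi_miR_7076, and neither was detected.

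The next probe in brightness, ambi_miR_7066, had spots between 6340 and 6555 units with BMP7 and between 7746 and 8316 with vehicle, so the arrays did not overlap and BMP7 was the dimmer. At the other end, among candidates not detected in the Cy3 channel, were ambi_miR_7084 with means of 180 and 165 units with BMP7 and vehicle, ambi_miR_7097 with 180 and 170, and ambi_miR_7062 with 184 and 182. The detected probe ambi_miR_7059_1 was as dim, with means of 210 and 139 units, the latter the lowest of all 377 probes on the vehicle array.

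Between the arrays the Spearman correlation of the candidates' second channel levels was 0.93 over the 33 probes, and 0.98 over the 344 others. The median log2 ratio of these levels, BMP7 over vehicle and with no normalization, was 0.16 for the candidates and -0.14 for the other probes. Within the candidates it was 0.18 for the 21 dim probes and -0.092 for the 7 brightest, and the log2 ratio of the Control_1 medians was 0.33. Within 1 array the Spearman correlation of the candidates' excess in the Cy3 channel with their level in the second channel was 0.28 with BMP7 and 0.16 with vehicle, and 0.21 on both arrays for the other probes.

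The authors' deposited table, as used here, gave values for 339 array probes and for 0 of the 33 candidates. That table's values could be rebuilt by dividing each spot's Cy3 brightness by its second channel brightness, averaging a probe's 4 spots, and dividing by the same average for the Control_1 spots, with no background subtraction. The rebuilt value lay within 0.1% of the authors' deposited table for 336 of its 339 array probes with BMP7 and 337 with vehicle. Computed the same way for the candidates, the median ratio was 1.01 with BMP7 and 0.761 with vehicle. In the authors' deposited table the median over array probes is 0.0813 with BMP7 and 0.0539 with vehicle.

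On this scale 30 of the 33 candidates on each array were above the median of the authors' deposited table. Of them, 5 with BMP7 and 3 with vehicle were above its highest array value, which is 1.24 and 1.21 in the authors' deposited table. The ratio has the second channel below the line, and the 21 candidates dim in it had a median ratio of 1.16 with BMP7 and 1.01 with vehicle, while the 7 brightest in it had 0.0969 and 0.0776. Over the 33 candidates the Spearman correlation of the ratio with the second channel was -0.93 with BMP7 and -0.91 with vehicle, and with the excess in the Cy3 channel it was -0.099 and 0.11. The ratio and each channel share the same readings.

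The median rebuilt log2 fold, BMP7 over vehicle, was 0.27 for the candidates and 0.54 for the array probes of the authors' deposited table. On this scale, which is not centred on 0, 26 of the 33 candidates and 344 of all 377 probes were above 0. No candidate reached 2-fold in either direction, and 7.16% of all 377 probes were 2-fold or more higher on the rebuilt ratio. For ambi_miR_7038_1 the rebuilt log2 fold was 0.63 and for ambi_miR_7081 it was -0.62, the first close to that median of 0.54 and the second below it. The ratio holds the same Cy3 readings and is no separate measurement.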

How the data were processed

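Total RNA of 1 culture group per array was measured in the scanner files of 2 arrays. Per the file headers, intensity columns are mean spot brightness from GenePix Pro 5.1.0.19 with no normalization and with the local background not subtracted, and the sum and ratio of background-subtracted means, deposited beside them, were used as a score. From these the local background was solved for 1727 of 1728 spots on each array, and the remaining spot took its block's median. The ratio values of the authors' deposited table cover 339 other array probes and were used for comparison; how they were made is not stated in the sources used here.

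The intensity of the Cy3 channel was corrected with normexp (offset 50, limma 3.58.1, R 4.3.3) on all spots. Controls were removed, both arrays were quantile normalized over 377 probes, and the log2 values of 4 spots were averaged; tables used pandas 2.3.3, scipy 1.17.1 and numpy 2.4.6 under Python 3.11.15. The steps were also run on a simulated pair of arrays made from the vehicle array's spots. That pair had the same local backgrounds on both arrays and no shift by block, so it cannot speak to such differences in these data. Other probes with a mouse prefix were counted as having a mouse miRNA of that name without a lookup. The rest were matched to mature mouse miRNA names and a RefSeq mouse table (GRCm38.p6), allowing for differences in strand and variant marks. By this rule 276 other probes had a mouse miRNA of that name and 68 had none.

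The candidates are all probes with the prefix, but this group, the tests and the alternatives were taken up with earlier results of these data known. The text names every detected candidate and, of the others, the 3 of highest excess per array and the 3 brightest and 3 dimmest in the second channel. A further part of the rule asked for rows of the authors' table and was not applied.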

Additional observations from a re-analysis of the deposited data

Results flagged for a closer look

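In the second channel, which the background-corrected Cy3 comparison does not use, 12 of the 33 candidates had a mean above every Control_1 spot on both arrays. This is a smaller share than over the whole array. On both arrays 63.6% of the candidates, but only 9.28% of all 377 probes, were at or below the brightest Control_1 spot.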

How the results depend on the processing

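No paired analysis was possible because each group has 1 array. The subtraction of block medians and the use of bounds were chosen after the data had been seen. In blocks 2, 10 and 12 those medians rest mostly on probes not detected on either array. Low signal over background limits detection, and the cause of the shifts was not tested except where stated. The number of candidates detected with BMP7 (4) was 9 at 1 standard deviation and 2 at 3 standard deviations or with 3 of 4 spots required; with vehicle (7) it was 17 at 1 standard deviation and 4 with 3 of 4 spots; on 1 or both arrays (7) it was 19 and 4. The 0 candidates at least 2-fold higher became 2 with plain subtraction, which sets spots at or below background to 1 unit, and 1 against block medians. The 1 at least 2-fold lower became 3 with plain subtraction. It became 0 with no background correction, scaling on the Cy3 control spots, the rebuilt ratio, 3 of 4 spots required, detection on both arrays, bounds or block medians, and 0 to 1 with 1 spot left out.

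The candidates' median log2 difference was -0.039 with no background correction, -0.94 with plain subtraction, -0.028 with no normalization between arrays and -0.079 with the median of spots, and ran from -0.039 to 0.11 with 1 spot left out. The rebuilt ratio's median was -0.27 after subtraction of the median of the authors' deposited table, and -0.38 from background-subtracted intensities, which only 6 candidates allow. With the local background subtracted, the second channel's median was -5.72 with BMP7 and -24.5 with vehicle. Signs were counted against 0 also for the rebuilt ratio, whose median log2 fold over the array probes of the authors' deposited table was 0.54. In that ratio ambi_miR_7038_1, at 0.63, was close to this median. The probes ambi_miR_7070 at 0.19, ambi_miR_7083 at 0.40 and ambi_miR_7103 at 0.30 were above 0 but below it. Of 105 alternative values of the 7 detected candidates, 96 kept their sign against 0, including all of those for ambi_miR_7038_1 (0.52 to 1.21) and ambi_miR_7081 (-1.03 to -0.39). The 9 others were ambi_miR_7070 at -0.055 with no background correction, -0.020 with the median of spots, -0.052 without spot 3 (0.37 at most with 1 spot left out) and -0.34 against its block; ambi_miR_7083 at 2.46 with plain subtraction, 0.22 without spot 4 (-0.36 at least with 1 left out), 0.40 in the rebuilt ratio and 0.40 against its block; and ambi_miR_7103 at -0.068 without spot 4 (0.46 at most with 1 left out).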
